A study of Mus musculus with 6 samples.

Results

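Smooth muscle cells and pericytes are the contractile wall cells of blood vessels, and 10 genes that mark them were followed in the hearts of 9-month-old mice: Myh11, Acta2, Tagln, Cnn1, Smtn, Lmod1, Mylk, Abcc9, Pdgfrb and Cspg4. The genes were chosen by symbol, and all 19 probe sets annotated to exactly 1 of these symbols were used, out of 45037 probe sets tested. In the table with 1 probe set per gene, the one with the highest mean, the 10 genes stood among 18193 named genes, and all 10 were measured. The study compared GRK2+/- mice, heterozygous for a targeted allele of Adrbk1 (now named Grk2, a kinase that desensitises G protein-coupled receptors) backcrossed onto C57BL/6J, with wild-type C57BL/6J littermates (WT). Each group held 3 hearts with 1 Affymetrix array per heart, and both groups were 9 months old and untreated. The RNA came from the upper part of each heart after arrest with potassium chloride. No promoter or cell type restricts the allele in the labels, the sex of the animals was not given in the sources used here, and no named probe set measured Grk2, so the genotypes were not checked by the targeted gene.

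The contraction of smooth muscle runs on a myosin and an actin distinct from those of the heart muscle cell, and is switched on when myosin light chain kinase phosphorylates the regulatory light chain. Many of these contractile genes are transcribed through serum response factor and its partner myocardin, which act at a short A/T-rich element, the CArG box. Pericytes surround capillaries, are recruited by endothelial PDGF-B through the receptor Pdgfrb, and carry the proteoglycan Cspg4 (NG2) and a potassium channel built with Abcc9. In whole tissue, a higher or lower signal can reflect more or fewer cells of a type or a different amount of RNA per cell, and the arrays cannot tell these apart.

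The promoter of Acta2 is shown because it is the textbook example of such control and was the 1 of the 7 genes with a RefSeq promoter window here (GRCm38.p6, 250 bases before to 50 after the annotated start) that held a CArG-like match. A match was CC, then 6 bases of which at least 5 were A or T, then GG, a pattern that reads the same way on both strands. Capitals mark the matches. The Acta2 window lies at chr19:34255324-34255623 on the minus strand, and its matches begin at positions -84 and -34 relative to that start.
Acta2: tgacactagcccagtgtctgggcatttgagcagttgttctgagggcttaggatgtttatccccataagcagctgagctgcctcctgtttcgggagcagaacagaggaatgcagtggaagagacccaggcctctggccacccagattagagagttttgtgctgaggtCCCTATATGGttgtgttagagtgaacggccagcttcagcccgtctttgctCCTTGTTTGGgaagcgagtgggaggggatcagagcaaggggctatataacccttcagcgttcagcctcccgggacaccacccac

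Among the other smooth muscle genes of a list described further on, Myl9 (chr2, plus strand) held 2 matches and Synm (chr7, minus strand) held 1. They are shown here with 10 bases on each side for comparison with Acta2. Both genes are examples, and matches in the rest of that list are not shown. The Myl9 matches lie at chr2:156775293-156775322 and chr2:156775355-156775384, and the Synm match lies at chr7:67759962-67759991.
Myl9 first: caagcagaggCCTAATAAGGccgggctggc
Myl9 second: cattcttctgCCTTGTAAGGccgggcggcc
Synm: caacggggagCCTCATAAGGtgtcccagat
Of all 32851 promoter windows in the table, 9.98% held at least 1 such match and 0.822% held at least 2. The windows of Cnn1, Smtn, Lmod1, Mylk, Abcc9 and Cspg4 held none, which says only that these letters are not in this window.

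None of the 10 genes differed between GRK2+/- and WT hearts after adjustment. With limma and Benjamini-Hochberg adjustment, 0 of the 10 genes and 0 of the 19 probe sets had an adjusted p under 0.05 (0.00% of all genes), with smallest adjusted p of 0.107 and 0.157, both for Myh11. At an unadjusted p under 0.05 there were 3 of 10 genes, Myh11, Abcc9 and Pdgfrb, all higher in GRK2+/- hearts, beside 6.30% of all genes that were higher and 7.70% that were lower at that p. These 3 genes were also the ones whose GRK2+/- values all lay above the WT values, beside 7.44% of all genes. Of the 10 differences 6 were above 0, beside 43.5% of all genes, and their median was 0.17 on the log2 scale, beside -0.019 over all genes. Without GRK2+/- heart 3 the median was 0.08. With 3 hearts against 3, an exact permutation test of a single gene cannot give a two-sided p below 0.1, and precision is limited by the 6 arrays.

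All levels below are deposited log2 values, and all differences are GRK2+/- minus WT on the log2 scale with limma's standard error (SE, n = 3 per group). Myh11, the smooth muscle myosin heavy chain and the most restricted marker of mature smooth muscle, had levels of 8.30, 8.21 and 8.17 in GRK2+/- hearts 1, 2 and 3, against 7.59, 7.89 and 7.82 in WT hearts 1, 2 and 3. The groups did not overlap, and WT heart 1 was the lowest of the 6. The difference was 0.47 ± 0.09, or 1.38-fold (limma unadjusted p = 0.000393, adjusted p = 0.107). The dimmer Myh11 probe set (1418122_at) gave 5.82, 5.84 and 5.95 in GRK2+/- hearts, against 5.76, 5.94 and 5.70 in WT hearts. On that probe set the groups overlapped, with a difference of 0.07 ± 0.08.

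Acta2, alpha smooth muscle actin, is also made by myofibroblasts. Its levels were 11.07, 11.28 and 11.84 in GRK2+/- hearts, against 10.83, 11.17 and 11.28 in WT hearts. GRK2+/- heart 3 stood above the other 5 hearts, while the remaining values overlapped, and no other of the 10 genes spanned as wide a range over the 6 hearts (1.01). The difference of 0.31 ± 0.18 (adjusted p = 0.473) was 0.084 without GRK2+/- heart 3 and 0.17 without WT heart 1. The probe set carries the suffix _s_at, Affymetrix's mark for probes that can match more than 1 transcript. Of the 2 much dimmer Acta2 probe sets, 1444105_at had 5.15, 5.02 and 5.20 in GRK2+/- hearts, against 4.99, 4.95 and 4.85 in WT hearts, without overlap and with a difference of 0.20 ± 0.08 (adjusted p = 0.325). The third, 1456658_at, differed by 0.06 ± 0.07.

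Tagln (transgelin or SM22 alpha, an actin-binding protein of smooth muscle) had levels of 8.58, 8.76 and 8.93 in GRK2+/- hearts, against 8.52, 8.58 and 8.71 in WT hearts. As for Acta2, GRK2+/- heart 3 was the highest and the groups overlapped. The difference of 0.15 ± 0.10 (adjusted p = 0.497) was 0.066 without GRK2+/- heart 3. Alongside these genes, RNA integrity was read from the control probe sets at both ends of 4 transcripts. For beta-actin the 3′ level exceeded the 5′ level by 0.98 ± 0.08 in GRK2+/- hearts and 0.78 ± 0.04 in WT hearts (SD, n = 3 each). For pyruvate carboxylase the excess was 1.77 ± 0.07 in GRK2+/- hearts and 1.75 ± 0.05 in WT hearts, for transferrin receptor 1.23 ± 0.02 in GRK2+/- hearts and 1.33 ± 0.12 in WT hearts, and for Gapdh 0.03 ± 0.02 in GRK2+/- hearts and 0.01 ± 0.04 in WT hearts (SD, n = 3 each). The part of RNA integrity in the differences was not tested.

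Another 3 proteins of the contractile apparatus had small negative differences. Cnn1, calponin 1, which binds actin and restrains the myosin motor, had levels of 5.59, 5.65 and 5.72 in GRK2+/- hearts, against 5.71, 5.67 and 5.96 in WT hearts. The highest value was that of WT heart 3, and the difference of -0.13 ± 0.09 (adjusted p = 0.546) was -0.034 without that heart. Smtn, smoothelin, a cytoskeletal protein of contractile smooth muscle, had 9.82, 9.52 and 9.64 in GRK2+/- hearts, against 9.89, 9.63 and 9.82 in WT hearts, with overlap and a difference of -0.12 ± 0.10 (adjusted p = 0.597). That difference ran between -0.20 without GRK2+/- heart 1 and -0.053 without GRK2+/- heart 2. Lmod1, leiomodin 1, which nucleates actin filaments in smooth muscle, had 6.72, 6.80 and 6.76 in GRK2+/- hearts, against 6.79, 6.71 and 6.91 in WT hearts. Its difference of -0.04 ± 0.07 (adjusted p = 0.828) was 0.01 without WT heart 3. Each of these genes had 1 probe set, and the means of Cnn1 (5.65 in GRK2+/- and 5.78 in WT hearts) and Lmod1 (6.76 in GRK2+/- and 6.81 in WT hearts) were under 7.24, the median over all genes.

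Mylk, the kinase that starts smooth muscle contraction, had 3 probe sets. Its brightest probe set had levels of 8.91, 9.04 and 9.05 in GRK2+/- hearts, against 8.97, 8.84 and 8.64 in WT hearts. The groups overlapped through WT heart 1, and WT heart 3 was the lowest. The difference was 0.18 ± 0.09 (adjusted p = 0.407), and 0.092 without WT heart 3. The next probe set, 1425505_at, had 8.32, 8.35 and 8.29 in GRK2+/- hearts, against 7.97, 8.02 and 8.16 in WT hearts. There the groups did not overlap, and the difference was 0.27 ± 0.07 (unadjusted p = 0.00453, adjusted p = 0.225). The third Mylk probe set, 1425504_at, differed by 0.15 ± 0.10, and by 0.032 without WT heart 3.

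**Figure D1:**
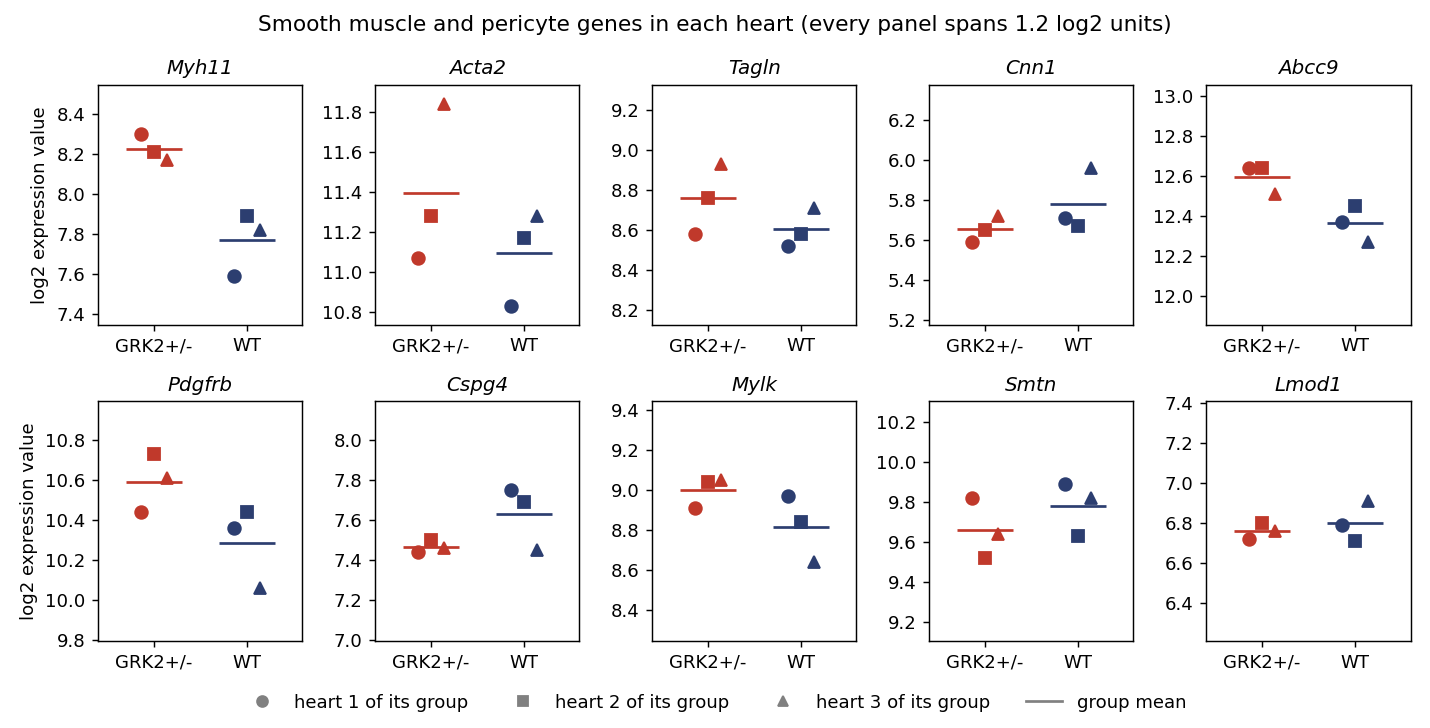
Log2 expression values of the 10 genes in the 3 GRK2+/- hearts (left in each panel, red) and the 3 WT hearts (right, blue), with marker shapes for hearts 1, 2 and 3 of each group and lines at the group means; every panel spans the same number of log2 units. Myh11, Abcc9 and Pdgfrb show no overlap between groups, and GRK2+/- heart 3 stands apart for Acta2 at 11.84.

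Abcc9, the regulatory sulfonylurea-receptor subunit of an ATP-sensitive potassium channel of pericytes and smooth muscle, is also made by heart muscle cells. Its levels were 12.64, 12.64 and 12.51 in GRK2+/- hearts, against 12.37, 12.45 and 12.27 in WT hearts. These come from a probe set that also carries the suffix _s_at, explained above for Acta2. The groups were separated by a gap of 0.059, and the difference was 0.23 ± 0.08 (unadjusted p = 0.0124, adjusted p = 0.248). A second probe set, 1435751_at, had 11.65, 11.48 and 11.46 in GRK2+/- hearts, against 11.29, 11.38 and 11.30 in WT hearts, also without overlap, with a difference of 0.20 ± 0.08. The third, 1420408_a_at, showed no such pattern, with a difference of 0.02 ± 0.08.

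Pdgfrb, the receptor through which PDGF-B holds pericytes at the vessel wall and which fibroblasts also carry, had levels of 10.44, 10.73 and 10.61 in GRK2+/- hearts, against 10.36, 10.44 and 10.06 in WT hearts. The groups were separated by a gap of only 0.003, and WT heart 3 was the lowest of the 6. The difference of 0.31 ± 0.11 (unadjusted p = 0.0196, adjusted p = 0.275) was 0.19 without WT heart 3. The other Pdgfrb probe set (1417148_at) had 8.58, 8.56 and 8.57 in GRK2+/- hearts, against 8.55, 8.64 and 8.50 in WT hearts. On that probe set the groups overlapped and the difference was 0.01 ± 0.07.

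Cspg4, the NG2 proteoglycan of pericytes, was the gene whose probe sets pointed in opposite directions. The probe set taken for the gene, 1450944_at, had 7.44, 7.50 and 7.46 in GRK2+/- hearts, against 7.75, 7.69 and 7.45 in WT hearts, a difference of -0.17 ± 0.09 (adjusted p = 0.416), or -0.10 without WT heart 1. The other, 1423341_at, had 7.69, 7.61 and 7.66 in GRK2+/- hearts, against 7.43, 7.56 and 7.21 in WT hearts. There the groups did not overlap, and the difference was 0.25 ± 0.09 (unadjusted p = 0.0203, adjusted p = 0.301), or 0.16 without WT heart 3. With the mean of both probe sets Cspg4 differed by 0.043, so the sign of its difference follows the choice of probe set.

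Over all 19 probe sets, 15 differences were above 0, beside 42.6% of all probe sets, and the median was 0.15, beside -0.021 over all probe sets. Of the 19, 7 had an unadjusted p under 0.05, all higher in GRK2+/- hearts, beside 5.44% of all probe sets that were higher and 7.40% that were lower at that p. Without WT heart 3 the count was 3, beside 3772 of all 45037 probe sets at that p in either direction. The same 7 probe sets were those without overlap between groups (6.76% of all probe sets were higher without overlap). Probe sets of 1 gene share their transcript and are not independent of each other. They belonged to Myh11, Acta2, Abcc9 (2 probe sets), Pdgfrb, Cspg4 and Mylk. For Acta2, Cspg4 and Mylk it was not the brightest probe set that separated the groups.

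**Figure D2:**
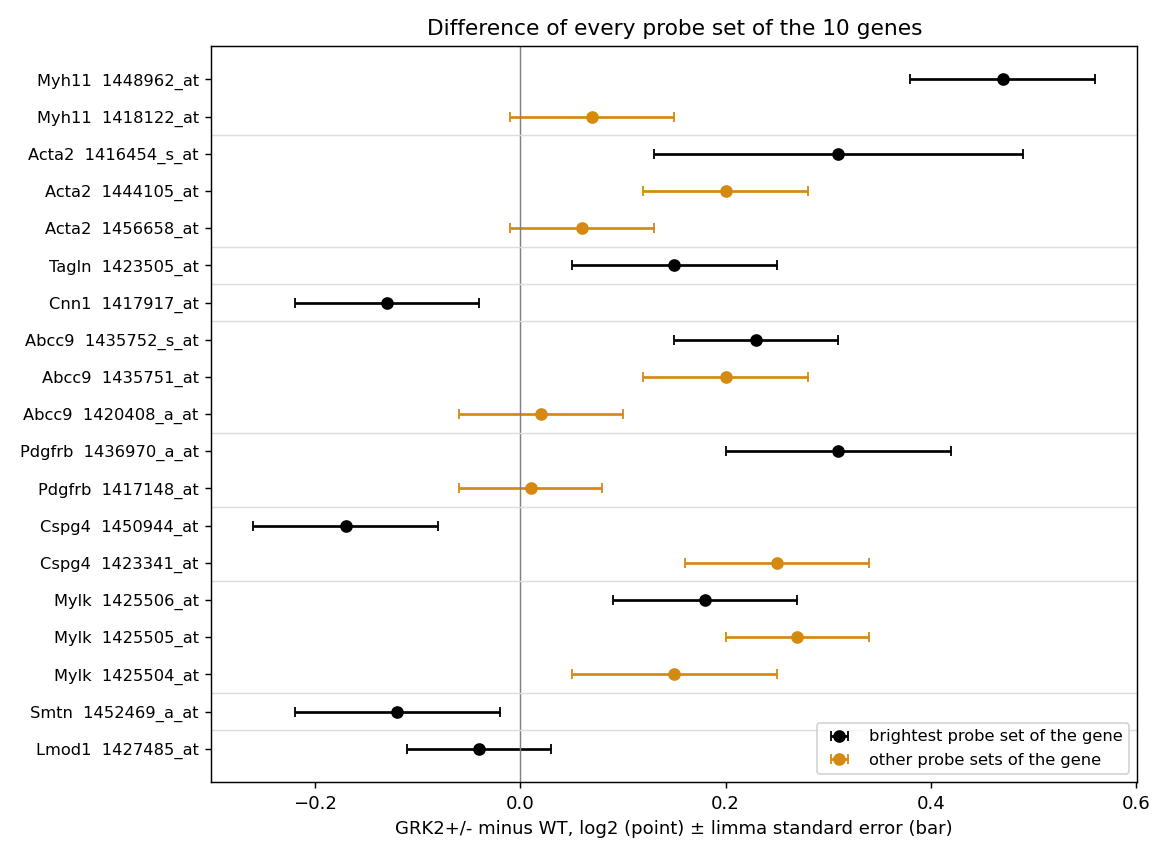
Difference of each of the 19 probe sets, GRK2+/- minus WT on the log2 scale, with limma's standard error as bars; black points are the brightest probe set of a gene and orange points its other probe sets. The points run between -0.17 and 0.47, and the 2 Cspg4 probe sets lie on opposite sides of 0.

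Whether the 10 genes varied together from heart to heart was asked with each of the 45 pairs across the 6 hearts. Pearson's r lay above 0 for 24 pairs and below 0 for 21, between -0.83 and 0.95, with a median of 0.11. By exact two-sided permutation tests, 5 pairs had an unadjusted p under 0.05 and 0 passed after Benjamini-Hochberg adjustment over the 45 pairs (smallest adjusted p = 0.25, smallest possible unadjusted p = 0.0028). After each group's mean was taken out of each gene, which removes the difference between genotypes, 16 pairs lay above 0 and 29 below, with a median of -0.16. The sign changed for 12 pairs.

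Acta2 and Tagln had the highest r of the 45 pairs. Their Pearson's r was 0.95 (exact permutation p = 0.00556, adjusted p = 0.25) and their Spearman's rho 0.94 (exact permutation p = 0.0167, adjusted p = 0.375) over 6 hearts. With the group means taken out r was 0.94, and without GRK2+/- heart 3 and WT heart 1, the hearts farthest from the median of Acta2, it was 0.89. Myh11, which belongs to the same contractile apparatus, ran opposite ways in the groups. Its r with Acta2 was -0.90 over the 3 GRK2+/- hearts and 0.89 over the 3 WT hearts, and with Tagln -0.98 over the GRK2+/- hearts and 0.55 over the WT hearts. With the group means taken out, the r of Myh11 over the 6 hearts was 0.13 with Acta2 and -0.08 with Tagln. Values over 3 hearts are descriptions, and the difference between the groups was not tested. Among GRK2+/- hearts, heart 3 was the highest for Acta2 and Tagln and the lowest for Myh11.

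The other close pairs involved Pdgfrb, Abcc9 and Cnn1. Pdgfrb and Mylk had r = 0.90 (exact permutation p = 0.0361, adjusted p = 0.375) and rho = 0.77 (exact permutation p = 0.103, adjusted p = 0.766). Their r was 0.82 with the group means taken out, and 0.52 without GRK2+/- heart 2 and WT heart 3. Abcc9 and Pdgfrb had r = 0.83 (exact permutation p = 0.0417, adjusted p = 0.375) and rho = 0.83 (exact permutation p = 0.0583, adjusted p = 0.656), 0.57 with the group means taken out and 0.98 without GRK2+/- heart 1 and WT heart 3. For Myh11 and Abcc9, which both separated the genotypes, r was 0.32 with the group means taken out and 0.86 over the 6 hearts (exact permutation p = 0.0361, adjusted p = 0.375; rho = 0.94, exact permutation p = 0.0167, adjusted p = 0.375; r = 0.90 without GRK2+/- heart 1 and WT heart 1).

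Cnn1 ran against Abcc9, with r = -0.83 (exact permutation p = 0.0306, adjusted p = 0.375), rho = -0.83 (exact permutation p = 0.0583, adjusted p = 0.656), r = -0.88 with the group means taken out, and r = -0.55 without GRK2+/- heart 1 and WT heart 3. Cnn1 and Lmod1 had r = 0.89 (exact permutation p = 0.0778, adjusted p = 0.50) and rho = 0.49 (exact permutation p = 0.356, adjusted p = 0.842). That r was 0.90 with the group means taken out. Without GRK2+/- heart 1 and WT heart 3, the hearts farthest from the median of Cnn1, it was 0.08, so its size depended on those hearts. WT heart 3 held the highest values of Cnn1 and Lmod1 and the lowest of Abcc9, Pdgfrb and Mylk among the 6 hearts.

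**Figure D3:**
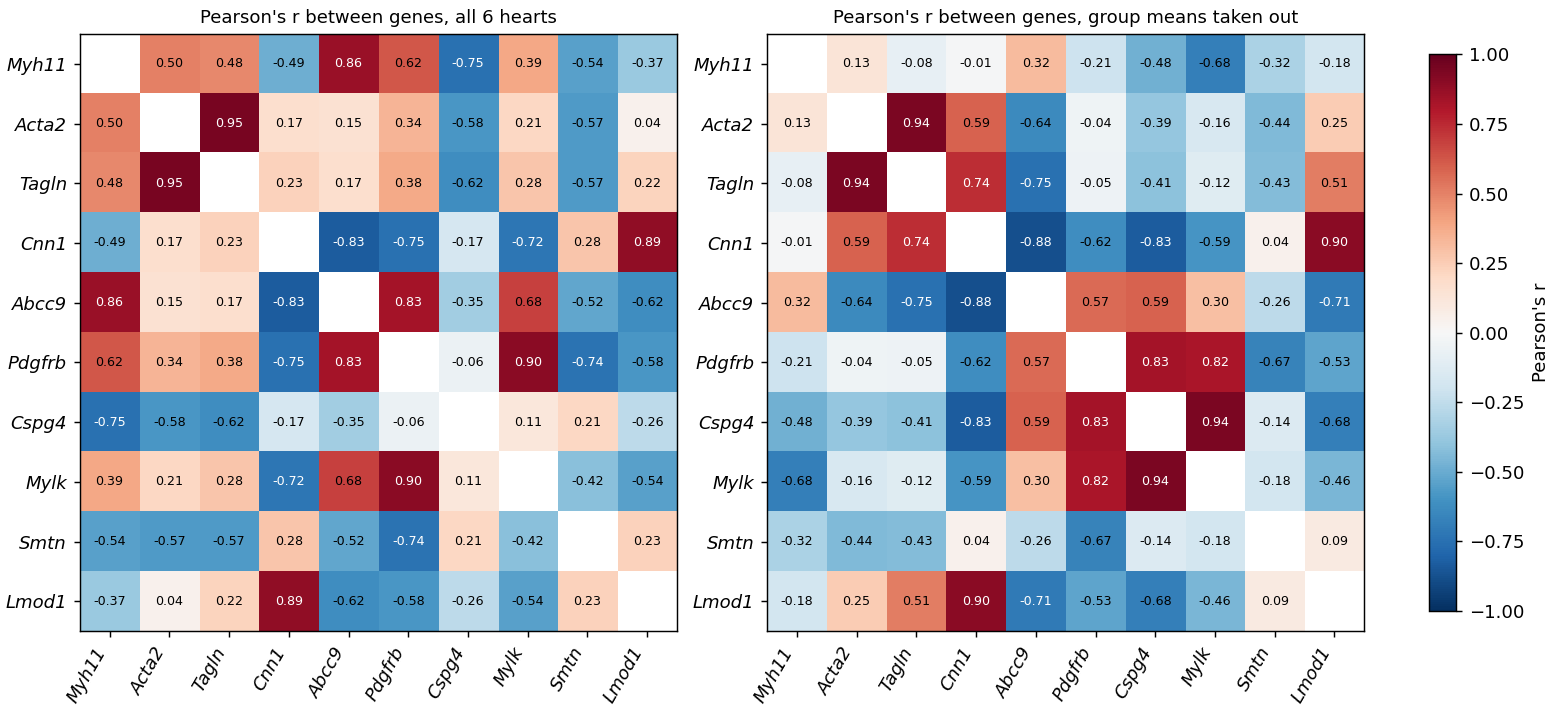
Pearson's r for the 45 pairs of the 10 genes across the 6 hearts (left) and after each group's mean was taken out (right), on a colour scale from blue (negative) to red (positive). Acta2 and Tagln stay at 0.95 and 0.94, while the value of Myh11 and Abcc9 is 0.86 on the left and 0.32 on the right.

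The mean profile of the 10 genes, each taken relative to its own mean over the 6 hearts, was -0.001, 0.063 and 0.116 in GRK2+/- hearts 1, 2 and 3, against -0.074, -0.045 and -0.060 in WT hearts 1, 2 and 3. The genes were not scaled, so those with a wide range, such as Acta2 (1.01), weighed more in this profile than the others. Among 8993 genes at or above the median level and in none of the lists used here, 63 had an r above 0.95 with this profile. The 5 with the highest r were Mff, a mitochondrial fission factor (0.997), the aryl hydrocarbon receptor Ahr (0.994), the growth factor Igf1 (0.992), the homeobox factor Meis2 (0.990) and the RNA-binding protein Hnrnpdl (0.990). With the group means taken out their r was between 0.96 and 0.99. The sizes behind these values differed: Ahr differed by 0.49 ± 0.11 (adjusted p = 0.14) between GRK2+/- and WT hearts and Mff by 0.03 ± 0.06 (adjusted p = 0.87). These values rest on 6 arrays and describe likeness only.

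Other genes of smooth muscle contraction and its cytoskeleton, 16 of 16 measured, had a median difference of 0.081, with 11 above 0 and 5 below. None passed the adjusted threshold (limma, smallest adjusted p = 0.201), and 4 had an unadjusted p under 0.05, all higher, beside 6.30% of all genes. Synm, an intermediate filament protein of muscle, had levels of 6.98, 7.39 and 7.10 in GRK2+/- hearts, against 6.82, 6.71 and 6.84 in WT hearts, a difference of 0.36 ± 0.10. Synpo2, an actin-bundling protein of smooth and striated muscle, differed by 0.28 ± 0.09 and the actin-binding caldesmon Cald1 by 0.26 ± 0.10. Myl9 differed by 0.241. Among the 5 genes below 0, Pdlim7 differed by -0.154, Csrp1 by -0.077, Des by -0.075 and Actg2 by -0.05. The groups did not overlap for Synm and Synpo2, and overlapped for Cald1, whose difference was 0.17 without WT heart 3. Same-direction probe sets numbered 2 of 2 for Synm, 3 of 4 for Synpo2 and 4 of 5 for Cald1.

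Regulators of serum response factor, the transcription factor of the CArG box shown in the Acta2 promoter, had a median difference of 0.097 over 10 of 10 measured genes, with 6 above 0. At an unadjusted p under 0.05 there were 3, all higher, beside 6.30% of all genes, and none passed the adjusted threshold (smallest adjusted p = 0.136). The 4 genes below 0 were Mrtfb (-0.141), Mrtfa (-0.063), Fhl2 (-0.032) and Elk1 (-0.019). Srf itself had levels of 9.11, 9.25 and 9.17 in GRK2+/- hearts, against 8.94, 8.95 and 8.99 in WT hearts, without overlap and with a difference of 0.21 ± 0.07 (adjusted p = 0.24). Its cofactor Myocd differed by 0.35 ± 0.13 with overlap, and by 0.20 without WT heart 3. For both Srf and Myocd, 1 of 2 probe sets pointed that way. Klf4, which in vascular smooth muscle represses the contractile genes, differed by 0.52 ± 0.11 without overlap (adjusted p = 0.136, and 0.0373 without GRK2+/- heart 1). Without GRK2+/- heart 1, 56 of all 18193 genes passed the adjusted threshold, beside 0 in the reported fit. Klf4 did not pass when any other single heart was left out.

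Genes that set the phosphorylation of the myosin light chain, 11 of 12 measured, had a median difference of 0.102, with 7 above 0 and 4 below. At an unadjusted p under 0.05 there were 4, all higher, beside 6.30% of all genes, and none passed the adjusted threshold. Ppp1r12a, the targeting subunit of myosin phosphatase, differed by 0.28 ± 0.09, without overlap. The phosphatase inhibitor Ppp1r14a, whose levels were 6.57, 6.84 and 7.08 in GRK2+/- hearts, against 6.53, 6.62 and 6.44 in WT hearts, overlapped and differed by 0.30 ± 0.12, or 0.18 without GRK2+/- heart 3. Genes of both the activating and the opposing arm stood among the higher values. Among the 4 genes below 0, Dapk3 differed by -0.215 and Prkg1 by -0.052.

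Other pericyte genes, 17 of 18 measured, had a median difference of 0.109, with 11 above 0 and 6 below. At an unadjusted p under 0.05 there were 7, of which 6 were higher (6.30% of all genes) and 1 lower (7.70% of all genes), and none passed the adjusted threshold (smallest adjusted p = 0.116). Gucy1a1, a subunit of the nitric oxide receptor guanylyl cyclase, had levels of 8.31, 8.68 and 8.70 in GRK2+/- hearts, against 8.10, 8.00 and 8.02 in WT hearts. The groups did not overlap, and the difference was 0.52 ± 0.10 (adjusted p = 0.116, and 0.0155 without GRK2+/- heart 1), with 2 of 3 probe sets in that direction. Gucy1a1 was thus among the 56 of all 18193 genes that passed without GRK2+/- heart 1. It did not pass when any other single heart was left out. The Notch target Heyl differed by 0.30 ± 0.07 and the transcription factor Ebf1 by 0.35 ± 0.09, both without overlap and with all of their 3 and 5 probe sets in that direction. Among the 6 pericyte genes below 0, P2ry14 differed by -0.237, Vtn by -0.099 and Cox4i2 by -0.08. Gucy1b1 differed by 0.007. Among the PDGF ligands and the other PDGF receptor, 5 of 5 measured with a median of 0.087, Pdgfa differed by 0.37 ± 0.11, without overlap. Pdgfb, the ligand that recruits pericytes, had levels of 9.40, 9.46 and 9.68 in GRK2+/- hearts, against 9.40, 9.27 and 9.36 in WT hearts, a difference of 0.17 ± 0.09 (0.091 without GRK2+/- heart 3), and Pdgfd differed by -0.16 ± 0.11.

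Markers of further cell types in the excised tissue were read beside these genes. Endothelial markers, which line the same vessels, numbered 17 of 17 measured with a median difference of 0.089, and their mean level lay between 8.87 and 8.96 in GRK2+/- hearts and between 8.81 and 8.90 in WT hearts. Their members diverged: Kdr differed by 0.55 ± 0.12 and the junction protein Cldn5 by 0.55 ± 0.16, whereas Robo4 differed by -0.31 ± 0.08, each without overlap. Without GRK2+/- heart 2 Cldn5 differed by 0.36. Of the markers, 5 of 17 had an unadjusted p under 0.05, 3 higher (6.30% of all genes) and 2 lower (7.70% of all genes). Fibroblast markers had a median of 0.071 over 12 genes, 8 above 0 and 4 below. At an unadjusted p under 0.05 there were 2 of 12, both higher, beside 6.30% of all genes. Their mean level was 9.82 to 9.91 in GRK2+/- hearts and 9.73 to 9.85 in WT hearts, and Col1a1, Ddr2 and Col3a1 differed by 0.30 ± 0.11, 0.15 ± 0.06 and 0.33 ± 0.15, while Lum and Postn differed by -0.183 and -0.149. Without WT heart 3 the differences of Col1a1 and Col3a1 were 0.19 and 0.13. Heart muscle cell markers had a median of -0.006 over 9 genes (limma, smallest adjusted p = 0.554). Of these, 0 had an unadjusted p under 0.05, beside 6.30% of all genes that were higher and 7.70% that were lower. Mybpc3, Ttn and Myh6 differed by -0.13 ± 0.09, 0.10 ± 0.09 and 0.05 ± 0.06.

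Genes of the matrix of elastic arteries and valves had a median of -0.02 over 7 of 8 genes. At an unadjusted p under 0.05 there were 4, of which 3 were lower in GRK2+/- hearts (7.70% of all genes) and 1 higher (6.30% of all genes). The microfibril genes Mfap5 and Mfap4 differed by -0.53 ± 0.12 and -0.29 ± 0.07, and Ltbp1, which tethers latent TGF-beta, by 0.33 ± 0.08, each without overlap. For Ltbp1, 2 of 3 probe sets pointed that way, and the mean of its probe sets gave 0.11. The mean level of that list was 7.66 to 7.79 in GRK2+/- hearts and 7.83 to 7.86 in WT hearts. Atrial markers had a median of 0.08 over 6 genes, 4 above 0 and 2 below. The natriuretic peptide Nppa, also a stress gene of the ventricle, differed by -1.20 ± 0.27, Bmp10 by -0.19 ± 0.08 and Myl4 by 0.14 ± 0.07. Sln, Myl7 and Dkk3 differed by 0.054, 0.114 and 0.106. The list's mean level, which includes the large difference of Nppa, was 6.71 to 6.89 in GRK2+/- hearts and 6.92 to 6.96 in WT hearts. Markers of epicardium and mesothelium, all 10 below the median of the gene table, had a median of 0.097, 7 above 0 and 3 below, with Wt1, Lrrn4 and Upk3b at 0.51 ± 0.12, 0.39 ± 0.13 and 0.17 ± 0.07, Krt18 at -0.178 and a mean level of 6.11 to 6.16 in GRK2+/- hearts and 6.00 to 6.08 in WT hearts. Leukocyte markers had a median of 0.073 over 8 genes, 5 above 0 and 3 below, with Ptprc, Lyz2 and Csf1r at 0.42 ± 0.12, 0.19 ± 0.08 and 0.13 ± 0.07, Cd3e at -0.124, and a mean level of 8.12 to 8.20 in GRK2+/- hearts and 8.02 to 8.15 in WT hearts. For Ptprc the groups overlapped, 1 of 2 probe sets pointed that way, and the mean of its probe sets gave 0.20. Of 5 adipocyte markers 3 were measured, all below the median of the gene table: Lep, Cidec and Adipoq differed by -0.20 ± 0.09, 0.02 ± 0.08 and -0.02 ± 0.07, and the mean level was 4.55 to 4.72 in GRK2+/- hearts and 4.66 to 4.73 in WT hearts. The part of these cell types in the values of the 10 genes was not tested.

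**Figure D4:**
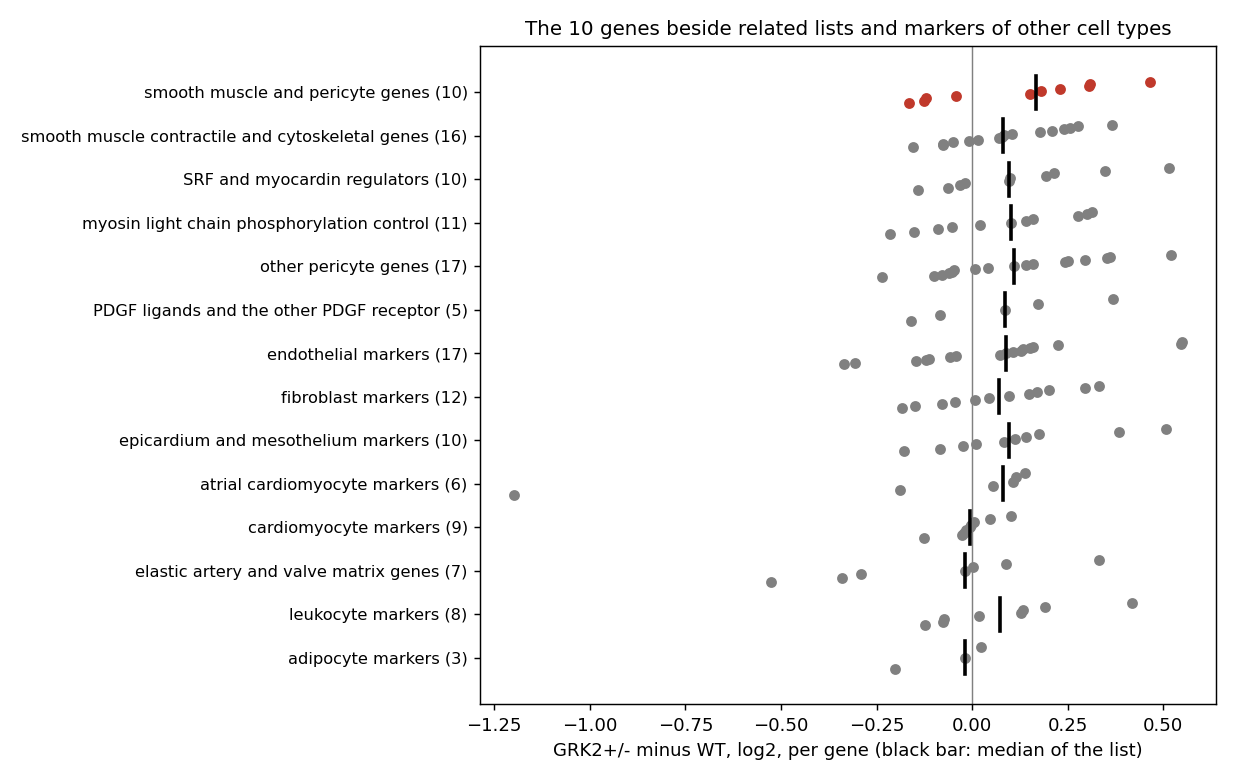
Difference of each measured gene, GRK2+/- minus WT on the log2 scale, for the 10 smooth muscle and pericyte genes (top row, red) and for related gene lists and markers of other cell types (grey), with the number of genes in parentheses and a black bar at each list's median. The 10 genes have a median of 0.17 and the lists below them medians between -0.02 and 0.109, with a wide overlap of single genes.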

How the data were processed

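Total RNA of 6 hearts (3 GRK2+/-, 3 WT) was hybridised as biotinylated cRNA to Affymetrix arrays. The values the authors deposited are log2 intensities after RMA, which with limma is named in the submitters' processing notes without versions. Array medians lay between 6.26 and 6.31, and correlations between arrays between 0.9936 and 0.9967. After 64 control probe sets were left out, 45037 were tested; 34945 had 1 gene symbol in the platform annotation, updated through Entrez identifiers to RefSeq symbols (GRCm38.p6), and 18193 genes were each represented by the probe set with the highest mean. From the lists, 5 genes had no named probe set and were not analysed here. Differences were tested with lmFit and eBayes of limma 3.58.1 under R 4.3.3 (two-sided, Benjamini-Hochberg adjustment over all genes or all probe sets, threshold 0.05). The step was tested on simulated data with known changes. The 10 genes and the lists were chosen with earlier results of these data known. Named besides the 10 genes were the 3 genes of each list with the smallest p and the 5 genes most like the mean profile; 1 of them is not reported here. Hearts are separate animals; no batch is given in the labels.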

Additional observations from a re-analysis of the deposited data

How the results depend on the processing

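Of the 10 genes and 19 probe sets, 0 passed the adjusted threshold wherever they were tested under the alternatives: leaving out each heart, a replicate block, centring each array on its median, quantile normalisation, a prior that follows the mean level, array weights, no features below the median level (which left 8 of the genes and 15 of the probe sets to test) and, for genes, the mean of all or the most variable probe set. The count of genes at an unadjusted p under 0.05, 3 as reported, was 5 with the most variable probe set and 2 to 5 without single hearts. That of probe sets, 7 as reported, was 3 to 7 without single hearts. Over all 18193 genes the count was 2546 in the reported fit, 2755 with the most variable probe set and 1614 to 3031 without single hearts. Over all 45037 probe sets it was 5780 in the reported fit and 3772 to 6862 without single hearts. The median difference of the 10 genes, 0.17, was 0.24 with the most variable probe set and 0.08 to 0.22 without single hearts. Signs turned for Cspg4 (0.043 with the mean of its probe sets, 0.25 with the most variable), Lmod1 (-0.088 to 0.01 without single hearts), the Abcc9 probe set 1420408_a_at (-0.048 to 0.062 without single hearts), the Pdgfrb probe set 1417148_at (-0.009 with quantile normalisation, -0.022 to 0.048 without single hearts), Myl4 (-0.014 with the mean and -0.17 with the most variable probe set), Cidec (-0.035 to 0.072 without single hearts) and Adipoq (0.009 centred, 0.007 quantile-normalised, -0.058 to 0.025 without single hearts). Of 39 genes examined singly from the lists, 16 had a difference that moved by over 1.5 times without 1 heart. The cause was not tested. The replicate numbers pair no animals in the labels, and same-numbered hearts deviated with r of -0.14, -0.02 and 0.01. With a replicate block 4 of the 10 genes and 8 of the 19 probe sets had an unadjusted p under 0.05. Over all features these counts were 2278 of 18193 genes and 5261 of 45037 probe sets. With that block 0 of the 10 genes and 0 of the 19 probe sets passed after adjustment. Nppa (-1.20) had an adjusted p of 0.0345 with the block and 0.15 in the reported fit (limma). It was the only 1 of all 18193 genes to pass with the block.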
